A study of Mus musculus with 10 samples.

Results

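AP-1 is a family of dimeric transcription factors, and the transcripts of 10 genes that encode its subunits are described here in mouse natural killer (NK) cells and splenocytes. The genes were Fos, Fosb, Fosl1, Fosl2, Jun, Junb, Jund, Atf3, Batf and Batf3, found through the gene symbol that the platform annotation gives to each probe set of the deposited table. They had 14 of 45101 probe sets, and the array represented 18193 genes through probe sets with a single symbol. Fosl1, Fosl2, Jun and Jund had 2 probe sets each and the other 6 genes had 1. For these 4 genes the brighter probe set stands for the gene, and the dimmer one is given beside it.

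RNA was hybridised to Affymetrix MOE430_2 arrays, which give 1 signal per probe set. IL-15 NK cells (3 arrays) were splenic NK1.1+CD3- cells of wild type C57Bl/6 mice, flow sorted and kept with 100 ng/mL of recombinant mouse IL-15 for 24 h. Resting NK cells (3 arrays) came from the same strain and sort and were lysed at once. Splenocytes (4 arrays) were unsorted resting spleen cells, 2 biological samples with 2 chips each, whose strain the sample labels do not give. The labels used here give no age or sex of the animals. All NK samples were amplified in 2 cycles and all splenocyte samples in 1, so cell type and amplification cannot be told apart in any comparison with splenocytes. NK cells cultured without IL-15 were not analysed here, so IL-15 and 24 h of culture cannot be told apart either.

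AP-1 binds DNA as a pair of proteins held together by a leucine zipper. Fos proteins do so mostly with a Jun partner, while Jun proteins can also pair with each other. Fos, Fosb, Jun, Junb and Atf3 are early genes, transcribed within minutes of a stimulus or of stress and soon shut off again, and Jund is made more steadily. Batf and Batf3 lack a transactivation domain, pair with Jun proteins and bind with IRF4 or IRF8 in lymphocytes and dendritic cells. In lymphocytes AP-1 takes part in switching on cytokine and effector genes after receptor signals.

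Early AP-1 genes are switched on through sites just before their start, so the 120 bases upstream of the annotated start are shown for 7 of the genes. They come from the RefSeq promoter table (build GRCm38.p6), in which 9 of the 10 symbols matched. Capitals mark each TGACG, the core shared by cyclic AMP response elements, and each TGACNTCA, a spacing of AP-1 and ATF sites, both searched on both strands. The 7 stretches lie at chr12:85473770-85473889 (plus strand) for Fos, chr7:19310046-19310165 (minus strand) for Fosb and chr4:95052223-95052342 (minus strand) for Jun. That of Junb lies at chr8:84978749-84978868 (minus strand) and that of Atf3 at chr1:191183334-191183453 (minus strand). Fosl2 and Batf are at chr5:32136352-32136471 and chr12:85686600-85686719 (both plus strand). The RefSeq gene record of Fosb starts farther upstream, at chr7:19310118, so part of its stretch lies inside that record.
Fos: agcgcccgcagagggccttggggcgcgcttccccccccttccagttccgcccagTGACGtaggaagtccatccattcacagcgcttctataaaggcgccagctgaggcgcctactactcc
Fosb: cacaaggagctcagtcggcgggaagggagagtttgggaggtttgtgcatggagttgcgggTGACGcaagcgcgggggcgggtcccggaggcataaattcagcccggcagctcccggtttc
Jun: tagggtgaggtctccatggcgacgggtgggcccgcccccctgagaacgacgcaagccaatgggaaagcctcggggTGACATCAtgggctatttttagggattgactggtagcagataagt
Junb: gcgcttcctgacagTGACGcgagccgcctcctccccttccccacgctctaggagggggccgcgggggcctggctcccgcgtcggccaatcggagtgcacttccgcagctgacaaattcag
Atf3: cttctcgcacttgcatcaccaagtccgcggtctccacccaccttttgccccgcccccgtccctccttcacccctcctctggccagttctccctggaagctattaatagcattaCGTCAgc
Fosl2: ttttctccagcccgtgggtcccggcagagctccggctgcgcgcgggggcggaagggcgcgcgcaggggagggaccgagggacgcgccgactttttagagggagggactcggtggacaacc
Batf: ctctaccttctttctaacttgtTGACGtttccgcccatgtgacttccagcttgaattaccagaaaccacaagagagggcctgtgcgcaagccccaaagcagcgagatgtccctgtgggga
Counted back from the annotated start, the core began at position -66 in Fos, -60 in Fosb, -106 in Junb and -98 in Batf, on the strand of the gene. In Atf3 it lay at -7 to -3 on the other strand, and Jun held a TGACATCA that began at -45. Of all 32851 promoters in the table, 11.7% held a TGACG and 5.07% a TGACNTCA in the same 120 bases. No match was found in the stretches of Fosl2, Jund and Batf3, so 6 of the 9 held one. A match describes the letters of the window and is not evidence of binding.

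Signals below 179.8 units, taken as the floor of detection, were set to it before log2 was taken. A gene was tested where at least 3 arrays of the groups compared lay above the floor, so Fosl1 was not tested in 2 of the 3 comparisons. The sorted arrays carried more NK marker signal than the splenocyte arrays. On all 6 NK arrays 11 of 11 NK markers on the array lay above the floor, but so they did on all 4 splenocyte arrays. Their summed signal was 438468 to 494026 on IL-15 NK, 619037 to 744380 on resting NK and 60396 to 78567 on splenocyte arrays. The B-cell markers (13 on the array) summed to 5492 to 7217 on IL-15 NK arrays, to 53304, 67456 and 14035 on resting NK replicates 1, 2 and 3, and to 478257 to 596188 on splenocyte arrays. Ms4a1, which encodes the B-cell antigen CD20, gave 10589, 10422 and 110 on the resting replicates, below the floor on the third. On that replicate 7 of the 13 B-cell markers lay above the floor. The macrophage and monocyte markers (15 on the array) summed to 1494 to 2136 on IL-15 NK arrays, to 7586, 21370 and 30625 on resting NK replicates 1, 2 and 3, and to 218782 to 242168 on splenocyte arrays. The T-cell markers (13 on the array) summed to 13454 to 14704 on IL-15 NK, 25653 to 29674 on resting NK and 100415 to 121841 on splenocyte arrays. Resting replicates 1 and 2 thus carried more B-cell transcript than replicate 3. The 3-prime to 5-prime signal ratio of the Gapdh control, a sign of RNA or labelling quality, was 2.9 to 3.81 on IL-15 NK, 5.88 to 9.54 on resting NK and 1 to 1.39 on splenocyte arrays.

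IL-15 NK cells were compared with resting NK cells to see which AP-1 transcripts differed after activation. Fos, Fosb, Jun, Junb and Jund fell, and Fosl2, Atf3, Batf and Batf3 did not pass the test. The fall was steepest for Fos, at 34.7-fold, and least for Jund, at 2.13-fold. In limma 5 of 9 tested genes were lower in IL-15 NK cells and 0 higher, where 12.1% of all 11433 tested genes were lower and 14.2% higher, all at an adjusted p under 0.05. At an unadjusted p under 0.05, 0 of the 9 were higher as well. Of all changed genes 53.9% were higher, or 36.6% with the arrays centred on their median signal, and the AP-1 count was 5 lower and 0 higher under either scaling. The median log2 difference of the 9 was -1.09, against -0.085 over all tested genes. Fosb was above the floor in resting NK cells alone, and of the 8 tested genes above it in both groups 4 were lower, with a median of -0.83. Taken as probe sets, 6 of 11 tested changed, all of them lower and that of Fosb among them, where 23.9% of all probe sets changed in either direction. Markers of other cells were lower in IL-15 NK cells too, 7 of 8 tested macrophage and monocyte markers, 7 of 9 tested B-cell markers and 4 of 8 tested T-cell markers. Among them Lyz1, Mpeg1, Vcam1 and Cr2 entered the test only through the resting arrays, where they were high, so these counts are a description. The part of other cells in the AP-1 differences was not tested. Arrays give relative levels, and in bulk RNA fewer cells of a type and less transcript per cell cannot be told apart.

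Fos encodes c-Fos, the founding Fos protein. Its signals were 1656, 1697 and 1176 in IL-15 NK cells, against 64866, 77751 and 27384 in resting NK cells and 13882, 10094, 8967 and 14479 in splenocytes. The 3 groups did not overlap, and the lowest resting array lay far above the highest IL-15 array. Fos fell by 5.12 ± 0.35 on the log2 scale (SE, 3 arrays per group, limma adjusted p = 1.5e-05).

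Fosb encodes a close relative of c-Fos that also activates transcription. Its signals were 145, 142 and 24.1 in IL-15 NK cells, against 3779, 1434 and 575 in resting NK cells. All 3 IL-15 arrays were below the floor and all 3 resting arrays above it, so the difference is a bound. Fosb was at least 8.12-fold lower. It entered the test only through the resting arrays, where it was high, so its limma adjusted p of 0.003 is given as a description and supports nothing. With any resting array left out, Fosb lay above the floor on too few arrays to be tested.

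Fosl2 encodes Fra-2, a Fos protein without the strong activating domain of c-Fos. Its signals were 6380, 3787 and 4178 in IL-15 NK cells, against 4648, 4977 and 5320 in resting NK cells. The resting values lay inside the IL-15 range. The log2 difference was -0.10 with a 95% interval of -0.59 to 0.40 (limma adjusted p = 0.80), and the dimmer probe set differed by -0.29 (limma adjusted p = 0.56 over all probe sets). Fosl1, which encodes Fra-1, had 48.1, 320 and 407 in IL-15 NK cells and 57.6, 6.5 and 36.9 in resting NK cells. It lay above the floor on IL-15 replicates 2 and 3 and on no resting array, too few for the test, and its other probe set was below the floor on every NK array.

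Jun encodes c-Jun, a main partner of Fos proteins in binding DNA. Its signals were 655, 734 and 870 in IL-15 NK cells, against 8821, 6417 and 1204 in resting NK cells. Every resting array was higher, but resting replicate 3 lay closer to the IL-15 arrays than to the other resting arrays. Jun fell by 2.45 ± 0.60 on the log2 scale (SE, 3 arrays per group, limma adjusted p = 0.014). Its dimmer probe set gave 769, 546 and 694 in IL-15 NK cells, against 3523, 3007 and 1490 in resting NK cells, and its log2 difference was -1.92 (limma adjusted p = 0.0028 over all probe sets). Without resting replicate 3 the difference of Jun was -3.33, and without resting replicate 1 it was -1.89.

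Junb, a Jun protein often made alongside c-Fos, had signals of 831, 1684 and 829 in IL-15 NK cells, against 5794, 3341 and 1940 in resting NK cells. The groups did not overlap, but IL-15 replicate 2 and resting replicate 3 lay close together. Junb fell by 1.67 ± 0.41 on the log2 scale (SE, 3 arrays per group, limma adjusted p = 0.014). It missed the threshold without IL-15 replicate 1 (difference -1.50, limma adjusted p = 0.0528) or without IL-15 replicate 3 (-1.50, limma adjusted p = 0.0543).

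Jund, the steadily made Jun gene, had signals of 25651, 20008 and 12682 in IL-15 NK cells, against 37012, 46219 and 36794 in resting NK cells. Every resting array was above every IL-15 array, and the resting arrays lay close together. Jund fell by 1.09 ± 0.25 on the log2 scale (SE, 3 arrays per group, limma adjusted p = 0.0095). Its other probe set was above the floor on 2 of the 6 NK arrays, both resting, and was not tested.

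Atf3 encodes a stress-induced factor that pairs with Jun proteins. Its signals were 373, 438 and 550 in IL-15 NK cells, against 1535, 965 and 182 in resting NK cells. Resting replicates 1 and 2 were above the IL-15 arrays and replicate 3 below all of them, so the groups overlapped. The log2 difference was -0.53 with a 95% interval of -1.96 to 0.91 (limma adjusted p = 0.59). Atf3 passed the test without resting replicate 3 (-1.44, limma adjusted p = 0.014).

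Batf had signals of 1371, 2200 and 1798 in IL-15 NK cells, against 1521, 1547 and 1482 in resting NK cells. The resting arrays were nearly identical and lay within the IL-15 range. The log2 difference was 0.21 with a 95% interval of -0.35 to 0.77 (limma adjusted p = 0.57). Batf3, known for its role in dendritic cell development, had 303, 406 and 290 in IL-15 NK cells, against 522, 576 and 383 in resting NK cells. Resting replicate 3 lay just below IL-15 replicate 2, and the log2 difference was -0.56 with a 95% interval of -1.21 to 0.08 (limma adjusted p = 0.18).

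When every gene was tested, however dim, Fos was the only AP-1 gene to pass among 18193 (limma adjusted p = 0.084 for Fosb, 0.18 for Jun, 0.15 for Junb and 0.11 for Jund).

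**Figure D1:**
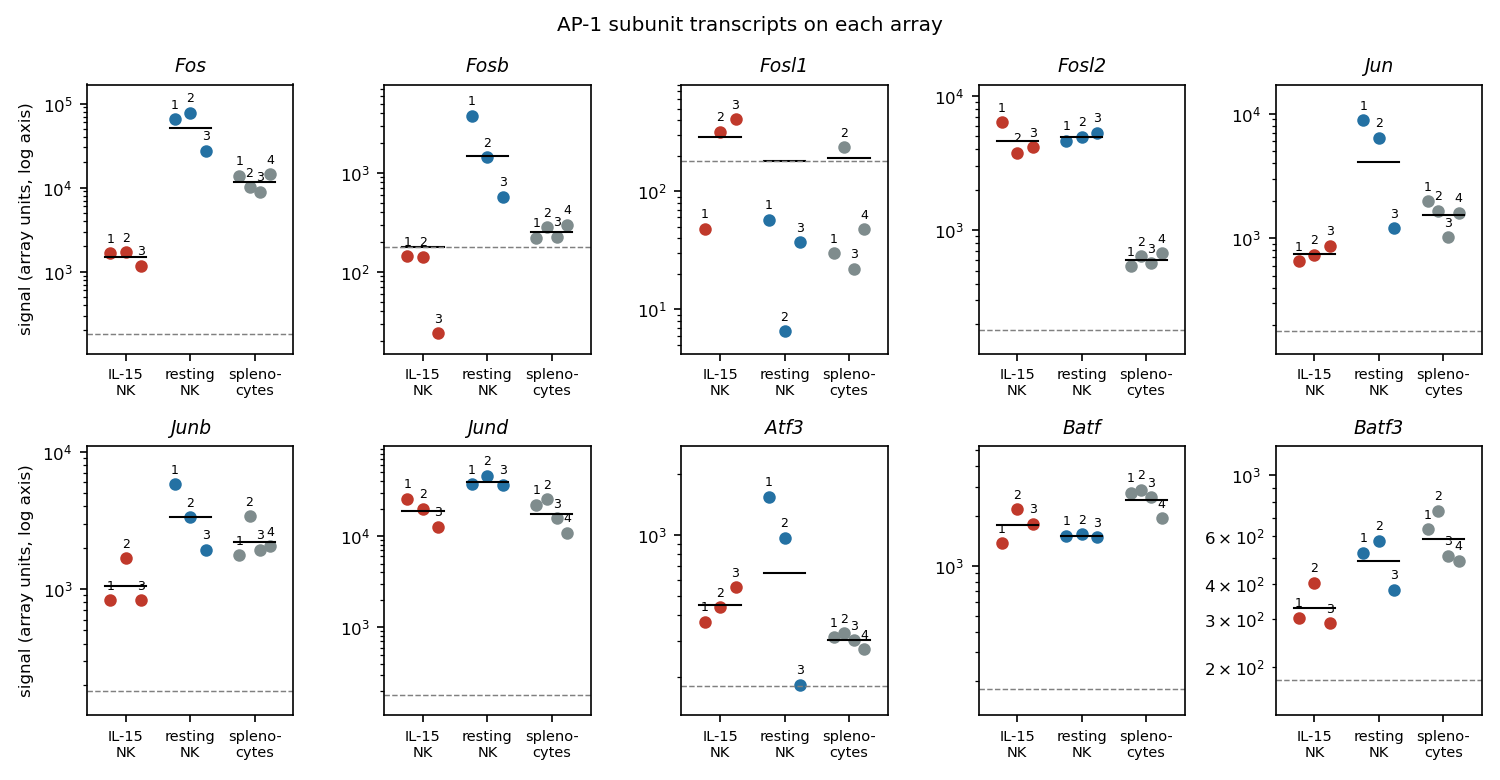
Signals of the 10 AP-1 genes on each array (log axis, array units), with IL-15 NK cells, resting NK cells and splenocytes from left to right in each panel. Numbers beside the points are replicate numbers, black bars geometric means of floored signals and the dashed line the floor of 179.8. Fos separates the 3 groups, Fosl2 separates NK cells from splenocytes, and resting replicate 3 lies lowest of the resting arrays for Fos, Fosb, Jun, Junb and Atf3.

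The resting arrays were then taken 1 by 1, since they differed among themselves for some AP-1 genes far more than for most genes. The resting range was 3.08 on the log2 scale for Atf3, 2.87 for Jun, 2.72 for Fosb, 1.58 for Junb and 1.51 for Fos. It was 0.59 for Batf3, 0.33 for Jund, 0.19 for Fosl2 and 0.06 for Batf. The median range over the 11433 tested genes was 0.59 and the 90th percentile 1.28, so each of the 5 early genes varied more than 9 in 10 genes did. On IL-15 NK arrays the range was 0.53 for Fos, 1.02 for Junb, 0.41 for Jun and 0.56 for Atf3, with Fosb at the floor. It was 1.02 for Jund, 0.75 for Fosl2 and 0.68 for Batf, wider than on the resting arrays, and 0.49 for Batf3.

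Resting replicate 3 was the lowest resting array for 8 of 9 tested AP-1 genes, the exception being Fosl2. Over all tested genes, 33.6% were lowest on it. Replicate 3 was lowest by little for Jund (36794 against 37012 on replicate 1) and for Batf (1482 against 1521 on replicate 1). Other early genes were also lower on it: 25 early genes outside AP-1 summed to 313311 on replicate 3, against 490518 and 465023 on replicates 1 and 2. The B-cell markers were also lowest on replicate 3, and the macrophage and monocyte markers were highest on it; the part of either was not tested. Fos gave 27384 on resting replicate 3, on which 7 of 13 B-cell markers lay above the floor, and at most 14479 on any splenocyte chip. On resting replicate 1, where the median B-cell marker reached 12% of its splenocyte level, Jun gave 8821, against 1990 on the highest splenocyte chip. NK and splenocyte arrays differ in amplification, and the share of Fos or Jun signal from other cells was not tested.

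IL-15 NK cells were also set against resting replicate 3 alone, a comparison chosen after the data were seen. Their mean was 18.4-fold lower for Fos and 1.97-fold lower for Jund. On the log2 scale Jun differed by -0.69 and Junb by -0.88, and Atf3, just above the floor on that array, turned to 1.30. Fosb was at least 3.2-fold lower. A single array has no spread of its own, so only differences are given. For Fos the log2 SD was 0.80 on resting and 0.30 on IL-15 arrays. Fos was 43.6-fold lower against replicate 1 and 52.2-fold lower against replicate 2, and Jun 11.8-fold and 8.58-fold lower. Fosl2 and Batf differed by at most 0.25 on the log2 scale against any single resting array.

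**Figure D2:**
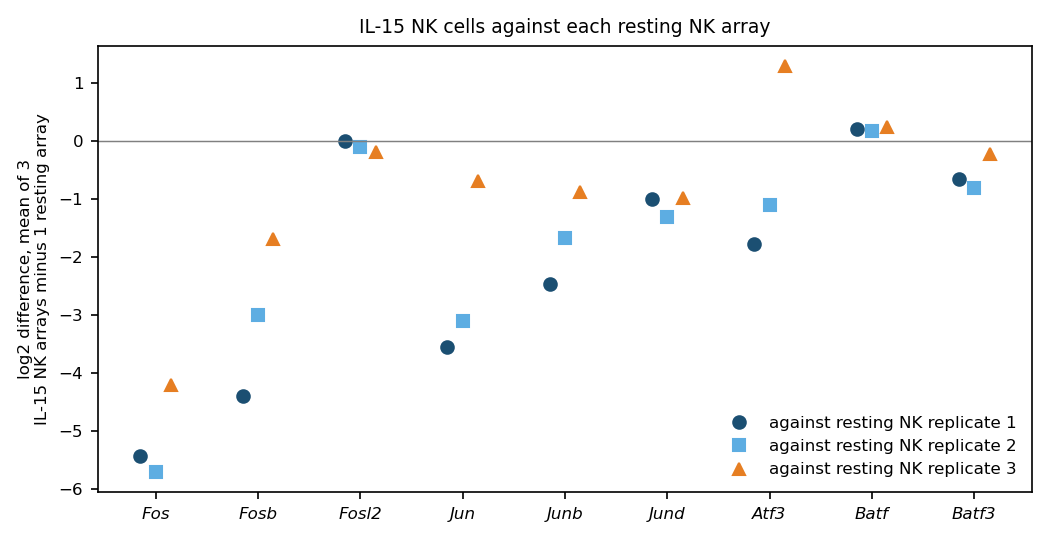
Log2 difference between the mean of the 3 IL-15 NK arrays and each single resting NK array, for the 9 AP-1 genes tested (circle, square and triangle: resting replicates 1, 2 and 3). Fos and Fosb lie below 0 against every resting array, Atf3 lies at 1.30 against replicate 3 and below 0 against the others, and Fosl2 and Batf stay near 0.

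Resting NK cells were compared with splenocytes to place the AP-1 genes of NK cells against those of the spleen as a whole. Fos, Fosb, Fosl2 and Jund were higher in resting NK cells and Batf lower. In limma 4 of 9 tested genes were higher and 1 lower, where 17.1% of 12938 tested genes were higher and 21.5% lower, and 6 of 12 probe sets changed, where 38.1% of all probe sets did. The median log2 difference of the 9 was 1.18, against -0.057 over all tested genes. Splenocyte differences carry the amplification step with them, and the Gapdh ratio of the resting arrays was above that of every splenocyte array.

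Fosl2 had the largest difference of the 10 genes. Its 4648, 4977 and 5320 in resting NK cells stood against 540, 640, 568 and 672 in splenocytes. Every resting array lay above every splenocyte chip, with little spread in either group. Fosl2 was 8.25-fold higher (log2 difference 3.05 ± 0.24 SE, limma adjusted p = 4.4e-05), and its dimmer probe set, with 517, 375 and 375 against 303, 227, 145 and 197, differed by at least 0.91 and did not pass (limma adjusted p = 0.052 over all probe sets). Fos was 4.45-fold higher in resting NK cells (limma adjusted p = 0.0042).

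Fosb, at 221, 282, 227 and 300 in splenocytes, was 5.72-fold higher in resting NK cells (limma adjusted p = 0.016). The lowest resting array, at 575, was still above the highest chip. Jund, at 22034, 25380, 15752 and 10874 in splenocytes, was 2.26-fold higher in resting NK cells (limma adjusted p = 0.021). Batf gave 2759, 2880, 2594 and 1934 in splenocytes, above every resting array, and was 1.66-fold lower in resting NK cells (limma adjusted p = 0.042). This call was lost on leaving out any of 6 of the 7 arrays, with an adjusted p of up to 0.11, and was kept without splenocyte chip 4. It was also lost under quantile normalization (limma adjusted p = 0.0664) and under median centring of the arrays (limma adjusted p = 0.101).

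Jun gave 1990, 1657, 1021 and 1598 in splenocytes, and the groups overlapped only through resting replicate 3 (log2 difference 1.42, 95% interval -0.25 to 3.10, limma adjusted p = 0.16). Without that array Jun passed, with a difference of 2.30 (limma adjusted p = 0.000695). Its dimmer probe set, at 659, 768, 636 and 748 in splenocytes, was below all 3 resting arrays and was called higher in resting NK cells (1.84, limma adjusted p = 0.0054 over all probe sets). Atf3, at 313, 327, 302 and 273 in splenocytes, also passed without resting replicate 3 (2.01, limma adjusted p = 0.00244) and not with it (1.09, limma adjusted p = 0.30). Junb, at 1764, 3402, 1932 and 2053, and Batf3, at 635, 743, 509 and 489, overlapped with the resting arrays and did not pass (limma adjusted p = 0.37 and 0.50).

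The comparison of IL-15 NK cells with splenocytes shares its splenocyte chips with the one above. Here Fosl2 was higher and Fos and Batf3 were lower. In limma 1 of 10 tested genes was higher and 2 lower, where 20.8% of 12465 tested genes were higher and 23.5% lower, and 3 of 12 probe sets changed, where 42.4% of all probe sets did. Fos, high above the chips in resting cells, was 7.8-fold below them in IL-15 NK cells (limma adjusted p = 0.00073). Fosl2 was 7.73-fold higher (limma adjusted p = 4.7e-05), and every IL-15 array was above every chip. Its dimmer probe set differed by at least 0.62, overlapped between the groups and did not pass (limma adjusted p = 0.15 over all probe sets).

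Batf3 was 1.78-fold lower in IL-15 NK cells (log2 difference -0.83 ± 0.28 SE, limma adjusted p = 0.04), and it lost the call in 4 of 7 fits that left out an array. Junb gave a difference of -1.07 and Jun of -1.03, with no overlap between the groups, but neither passed (limma adjusted p = 0.11 and 0.29). The dimmer probe set of Jun differed by -0.08 and did overlap (limma adjusted p = 0.88 over all probe sets). Jund differed by 0.09 with a 95% interval of -0.67 to 0.84 (limma adjusted p = 0.86). Batf differed by -0.52 (limma adjusted p = 0.12) and Atf3 by 0.57 (limma adjusted p = 0.59). Fosl1, with 1 of 4 chips above the floor, and Fosb, below the floor on every IL-15 array, did not pass (limma adjusted p = 0.16 and 0.56).

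**Figure D3:**
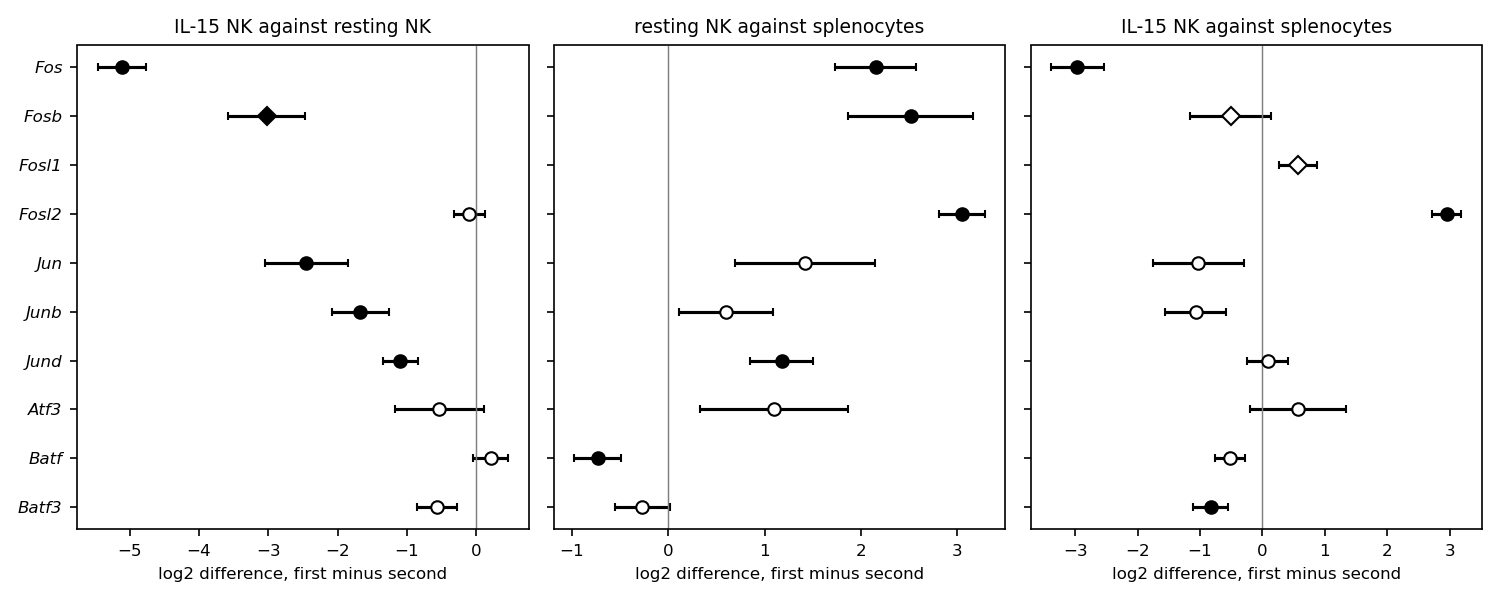
Log2 differences of the AP-1 genes in the 3 comparisons, the group named first minus the other (points, with SE bars). Filled symbols passed the limma test, open ones did not, and diamonds are bounds because the dimmer group had arrays at the floor. Fosl2 lies near 3 against splenocytes in both NK groups and near 0 between them, while Fos lies at -5.12 between the NK groups.

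Other genes of the AP-1 pathway were grouped in lists by role, and their counts are set against the same 12.1% lower and 14.2% higher. Of 19 tested bZIP factors (24 listed) outside AP-1 that can pair with its subunits, 3 were higher and 2 lower in IL-15 NK cells, with a median log2 difference of 0.05. Maff, a small Maf protein without an activating domain, rose at least 4.21-fold (limma adjusted p = 0.0037), with 2 of 3 resting arrays above the floor. Crem, a modulator of cyclic AMP responses, rose 3.9-fold (limma adjusted p = 0.0011), and Maf, a large Maf protein, fell 3.25-fold (limma adjusted p = 0.00038). Of 13 MAP kinase genes upstream of AP-1, 2 were higher and 0 lower: Map2k3 rose 1.84-fold and Map2k1 1.72-fold (limma adjusted p = 0.015 and 0.016). Both missed the threshold with median centring (limma adjusted p = 0.0919 and 0.11) and without IL-15 replicate 1 or 3.

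Serum response factor and its ETS partners carry growth signals to the Fos promoter. Of 5 tested genes of this group 2 fell and 0 rose. On the log2 scale Srf fell by 0.75 (limma adjusted p = 0.011) and Elk4 fell by 0.72 (limma adjusted p = 0.0089). The group means of Srf were 12.36 ± 0.07 in IL-15 NK and 13.11 ± 0.20 in resting NK cells (SD, n = 3 each). With the probe sets of a gene averaged, Srf differed by -0.07 (limma adjusted p = 0.813) and Elk4 by -0.52 (limma adjusted p = 0.0629). Of 25 early genes outside AP-1, 14 fell and 4 rose, with a median of -1.12. Klf4 fell 11.9-fold, Klf2 11-fold and Dusp1, a phosphatase that switches off MAP kinases, 4.87-fold (limma adjusted p = 0.00031, 3.4e-05 and 0.02). Dusp1 missed the threshold without IL-15 replicate 1 or 3 or resting replicate 1, and differed by -0.45 against resting replicate 3 alone.

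Among 14 tested genes with well known AP-1 sites, 2 rose and 4 fell, with a median of 0.17. The cytokine gene Tnf rose at least 2.97-fold (limma adjusted p = 0.027), with 2 of 3 resting arrays above the floor, and Gzmb, granzyme B, rose 2.52-fold (limma adjusted p = 0.00098). Plaur, the urokinase receptor, fell at least 2.93-fold (limma adjusted p = 0.0095), with 2 of 3 IL-15 arrays above the floor. Tnf missed the threshold without IL-15 replicate 1 or 3 or resting replicate 2 or 3 (limma adjusted p of up to 0.0953). Its difference moved with the floor, at 2.04 with the floor at the 20th percentile, where it missed the threshold (limma adjusted p = 0.0555), and 0.81 at the 60th. Genes of this list thus passed the test in both directions. Of 6 tested partners and linked genes of BATF, 0 rose and 2 fell, Maf and Prdm1. Prdm1, a transcription factor of effector lymphocytes, was 2.25-fold lower (limma adjusted p = 0.0059), while Irf4 and Irf8 differed by -0.08 and -0.10. Of 9 genes for the degradation and modification of AP-1, 2 rose and 1 fell. Cops5, a COP9 signalosome subunit that binds c-Jun, rose 2.82-fold (limma adjusted p = 3e-04), Nedd4, a ubiquitin ligase, rose 1.62-fold (limma adjusted p = 0.019) and Btrc, a subunit of another ligase, fell 2.43-fold (limma adjusted p = 0.0091). Nedd4 missed the threshold with median centring (limma adjusted p = 0.12) and without IL-15 replicate 1 or 2 or resting replicate 1 or 3.

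**Figure D4:**
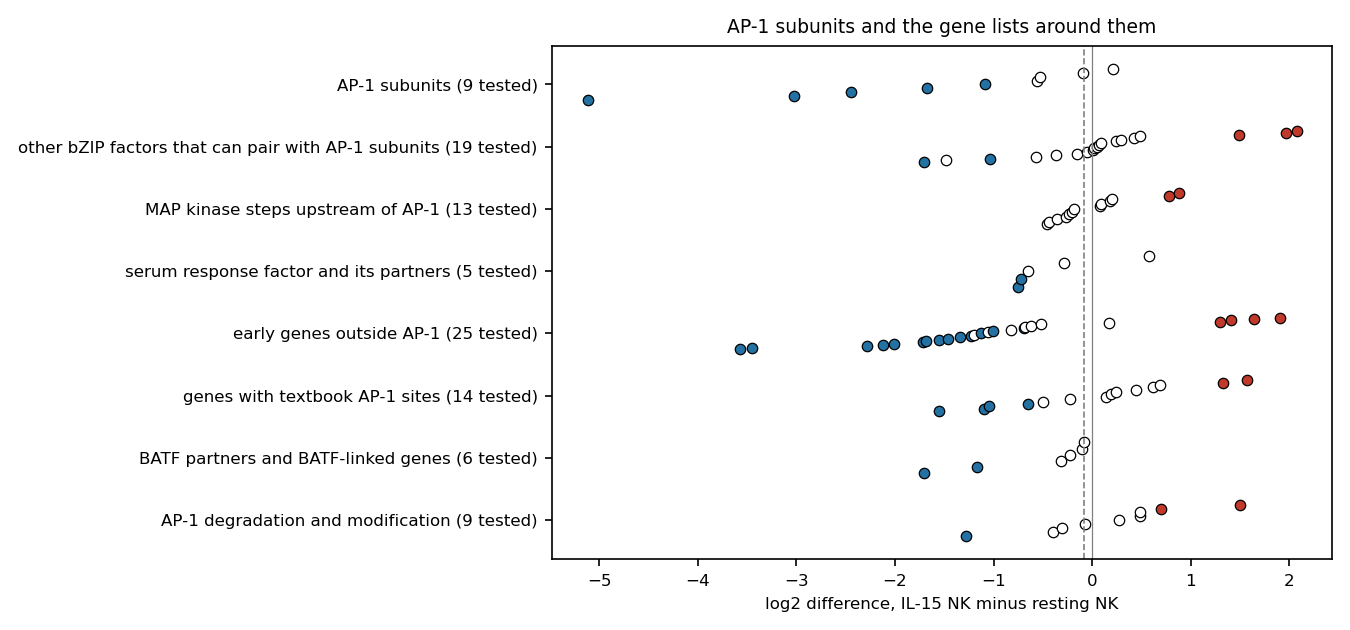
Log2 difference, IL-15 NK minus resting NK, for each tested gene of the AP-1 family and of 7 lists around it (red: higher, blue: lower, white: did not pass the limma test). The dashed line is the median of all tested genes, -0.085. The AP-1 and early gene rows reach farthest to the left. All 6 tested genes of the BATF row lie below 0, but only Maf and Prdm1 passed, and Irf4 and Irf8 lie near the dashed line.

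Over the 10 arrays, the genes whose log2 signals followed those of Fos most closely among 13417 genes were Mfhas1 (Pearson r = 0.98), Zxdb (0.975) and 4833407H14Rik (0.974). Mfhas1 had 2962, 3556 and 2438 in IL-15 NK cells, 11376, 17513 and 9951 in resting NK cells and 6906 to 8706 in splenocytes, the same order of groups as Fos. For Batf they were Zfp267 (0.962), Med11 (0.955) and Polr2j (0.951). Med11 had 851, 1871 and 1102 in IL-15 NK cells, 744, 1090 and 775 in resting NK cells and 1991 to 2758 in splenocytes. These values describe likeness over arrays that fall into 3 groups, and they carry no test.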

How the data were processed

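The deposited table held 1 linear signal intensity per probe set for each of 10 arrays, which the submitters' processing notes credit to GCOS 1.4. How its algorithm and scaling were set is not given in the sources used here. The mean after trimming 2% at each end was 1500 on every array, so no further scaling was applied. Signals under the floor (the median over arrays of each 40th percentile) were raised to it, and the brightest probe set (mean log2 signal over all arrays) stood for each gene. The test was limma 3.58.1, run in R 4.3.3 with a trended eBayes prior. P-values are 2-sided, adjusted after Benjamini and Hochberg over every tested gene, with a threshold of 0.05. Probe sets were also tested singly. The 2 NK groups were fitted over their own 6 arrays. Fits with splenocytes used all groups; which chips share a biological sample is not labelled, so each of 3 ways to pair the 4 chips was averaged and fitted, and the largest p kept. Folds are ratios of geometric means, and a fold is a bound where the dimmer group had arrays at the floor. The labels call the NK arrays biological replicates, and their number limits precision. The fits were also run on simulated data with independent noise on each array. The changed genes there lay above the floor on every array compared, so floor effects and chips that share a sample were not covered. The text names all AP-1 genes, up to 3 passing genes with the largest differences per list (the 2 brightest where fewer than 2 passed), and the 3 genes most like Fos and like Batf; Irf4 and Irf8 were added as BATF partners after their values were seen. Members and lists were chosen with earlier results of these data known. Promoter stretches are from RefSeq, and several listed genes had no probe set to themselves and were not analysed here.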

Additional observations from a re-analysis of the deposited data

How the results depend on the processing

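The number of AP-1 genes that changed in IL-15 NK against resting NK cells was 5 under most alternatives. It was 1 with no filter on dim genes, and 4 to 5 when 1 array was left out. The replicate number as a block also gave 5. Same-numbered arrays correlated by 0.10, 0.28 and 0.07 in their deviations from the group means, so the numbers were not taken to pair the samples. In resting NK against splenocytes the count of 5 became 2 with no filter, and lay at 4 to 6 with 1 array left out. In IL-15 NK against splenocytes the count of 3 became 5 with the chips as 4 samples or with the 2 groups alone, and lay at 2 to 3 with 1 array left out. Signs turned only for differences that had not passed. Between the NK groups, with 1 array left out, Fosl2 ranged from -0.32 to 0.05 and Atf3 from -1.44 to 0.10, and Atf3 was 1.30 against resting replicate 3 alone. In resting NK against splenocytes, Batf3 turned to 0.03 under quantile normalization, and with resting replicate 3 alone Jun turned to -0.34, Junb to -0.19 and Atf3 to -0.74. In IL-15 NK against splenocytes, Jund turned to -0.10 under quantile normalization, was 0.00 with probe sets averaged and ranged from -0.14 to 0.36 with 1 array left out. Median centring put the median of all genes at -0.253 between the NK groups, and quantile normalization put it at 0.111 in IL-15 NK against splenocytes, where the reported medians were -0.085 and -0.098. Over all genes, 1646 changed between the NK groups with no filter, against 3003 with it, and Maff, Map2k3, Map2k1, Dusp1, Tnf, Plaur, Prdm1, Btrc and Nedd4 missed the threshold there. The causes of these changes were not tested. Signals near the floor limit Fosl1, Fosb after IL-15 and Atf3.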
